A study of Mus musculus with 6 samples.

Results

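Most of the genes described here make cholesterol or are switched by SREBP2, the transcription factor that controls its synthesis. The others control SREBP2, make an isoprenoid used for proteins, or move or esterify cholesterol. All of these genes were taken by symbol from a list of 31, and all 31 were among the 16638 genes of the deposited table. Liver RNA was sequenced from mice of an obese model in 2 groups of 3 libraries. The HA group received hippuric acid, a glycine conjugate of benzoic acid, by injection into the abdomen at 60 mg/kg, 2 times a week for 5 weeks. The PBS group received phosphate-buffered saline, and its schedule is not stated. The sources used here give neither strain, sex or age nor the way obesity was brought about. They also do not state that each library is a separate animal, so a p-value here covers only variation from library to library, which can be technical.

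Cells hold SREBP2 in the endoplasmic reticulum, bound to its escort SCAP. When sterols are plentiful, INSIG proteins keep the pair there. When sterols run low, SCAP carries SREBP2 to the Golgi, proteases release its active end, and this binds sterol regulatory elements in gene promoters, usually beside the factors NF-Y and Sp1. The liver is a main site of cholesterol synthesis in the body, and its enzymes respond to dietary cholesterol, feeding and insulin.

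Promoters of 6 of the genes are shown, because most of the genes kept the same order across the HA livers, and sterol regulatory elements and NF-Y boxes are read in such windows. RefSeq promoters (build GRCm38.p6, from 250 bases before to 50 bases after the annotated start) were found for 25 of the 31 genes, with 32 start sites. Each is written 5′ to 3′ on the strand of its gene. Capitals mark a match to TCACNCCA, the core of a sterol regulatory element, or to CCAAT, the NF-Y box, on either strand, so the reverse form of CCAAT appears as ATTGG. The windows are Hmgcs1 (chr13:119690101-119690400, plus strand), Srebf2 (chr15:82147019-82147318, plus strand), Msmo1 (chr8:64733529-64733828, minus strand), Idi1 (chr13:8885356-8885655, plus strand), Insig1 (chr5:28071162-28071461, plus strand) and Ebp (chrX:8193463-8193762, minus strand).
Hmgcs1: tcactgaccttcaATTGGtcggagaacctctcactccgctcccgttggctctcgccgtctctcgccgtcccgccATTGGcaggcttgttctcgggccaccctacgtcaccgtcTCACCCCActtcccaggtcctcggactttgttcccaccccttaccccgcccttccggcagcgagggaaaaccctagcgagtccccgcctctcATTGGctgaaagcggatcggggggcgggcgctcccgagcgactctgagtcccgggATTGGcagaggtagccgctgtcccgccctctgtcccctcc
Srebf2: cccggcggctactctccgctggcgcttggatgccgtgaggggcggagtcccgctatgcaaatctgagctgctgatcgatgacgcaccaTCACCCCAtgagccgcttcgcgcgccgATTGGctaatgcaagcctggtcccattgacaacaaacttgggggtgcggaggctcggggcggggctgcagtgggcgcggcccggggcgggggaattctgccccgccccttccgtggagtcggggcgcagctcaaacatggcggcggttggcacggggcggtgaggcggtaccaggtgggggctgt
Msmo1: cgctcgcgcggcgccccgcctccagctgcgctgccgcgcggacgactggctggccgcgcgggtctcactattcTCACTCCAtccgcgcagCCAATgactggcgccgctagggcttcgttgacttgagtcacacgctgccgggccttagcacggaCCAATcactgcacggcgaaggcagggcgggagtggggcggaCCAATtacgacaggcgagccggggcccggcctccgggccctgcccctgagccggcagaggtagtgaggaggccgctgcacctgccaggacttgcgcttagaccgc
Idi1: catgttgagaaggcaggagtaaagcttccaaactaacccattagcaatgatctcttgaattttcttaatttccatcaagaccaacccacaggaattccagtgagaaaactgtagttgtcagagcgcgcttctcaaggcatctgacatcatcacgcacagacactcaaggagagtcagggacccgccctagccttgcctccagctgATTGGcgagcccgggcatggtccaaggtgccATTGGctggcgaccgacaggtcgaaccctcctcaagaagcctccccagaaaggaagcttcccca
Insig1: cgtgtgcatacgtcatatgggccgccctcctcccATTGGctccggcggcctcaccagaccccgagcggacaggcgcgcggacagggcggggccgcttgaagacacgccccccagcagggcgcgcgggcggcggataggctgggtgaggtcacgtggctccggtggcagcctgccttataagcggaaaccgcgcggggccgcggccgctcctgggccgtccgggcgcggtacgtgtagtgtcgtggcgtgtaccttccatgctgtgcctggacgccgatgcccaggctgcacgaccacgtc
Ebp: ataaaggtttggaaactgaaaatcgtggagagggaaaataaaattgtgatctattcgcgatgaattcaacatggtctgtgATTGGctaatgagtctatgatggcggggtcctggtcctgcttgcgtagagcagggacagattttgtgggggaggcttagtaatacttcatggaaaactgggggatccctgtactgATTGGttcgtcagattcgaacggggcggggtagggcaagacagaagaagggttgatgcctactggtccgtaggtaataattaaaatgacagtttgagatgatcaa

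The core TCACNCCA stood in 3 of the 32 member windows (9.38%), those of Hmgcs1, Msmo1 and Srebf2, against 4.36% of all 32851 promoters of the table. This motif was added after the matches of the longer ones were seen. Hmgcs1 alone held the longer TCACNCCAC (0.551% of all promoters for TCACCCCAC and 1.24% for TCACNCCAC), 137 bases before its start. CCAAT lay in 23 of the 32 member windows (71.9%), against 37.4% of all promoters. The Sp1 box GGGCGG lay in 25 of 32 (78.1%), against 35.7%. The promoters used for comparison were not matched to the member windows by base content or by expression in liver. The motifs were searched on both strands, and TCACNCCA lies within TCACNCCAC. A match is a run of letters and not a shown binding site, and Ebp, whose level differed little between livers, also held 2 CCAAT matches.

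Levels are in FPKM, which scales fragments by gene length and by library depth. The libraries held 37921444 to 39908844 fragments, recovered from the FPKM values, and no library was a copy of another (lowest chi-square between a pair 31.1 per degree of freedom). The hepatocyte markers were abundant in every library, with Alb, serum albumin, at 60866 to 71082 FPKM with HA and 36519.5 to 47670.2 FPKM with PBS. The 5 read summed to 94428, 80955 and 92976 FPKM with HA and 55589, 52901 and 64658 FPKM with PBS, in replicate order. Red blood cell markers, 5 in all, summed to 698, 1319 and 1231 FPKM with HA and 227, 329 and 335 FPKM with PBS, in replicate order, and 3 of the 5 passed the test below. Among the HA livers the hepatocyte sum was highest in replicate 1 and the red cell sum lowest, and their part in the sterol values was not tested. PBS replicate 1 stood apart. It held adrenal transcripts, with Hsd3b1 at 19.1 FPKM and Cyp11b1 at 9.45 FPKM, both at 0 in the other 5 libraries. It held muscle transcripts too (summed level 41.6 FPKM over 5 markers, against 0.264 to 0.971 FPKM in the other libraries). Genes averaging 0.5 FPKM or more were tested, 10745 in all, of which 31 were higher with HA and 55 lower (limma on log2(FPKM + 1), Benjamini-Hochberg adjusted p under 0.05). After median centring the split was 35 and 27. In bulk liver, fewer cells of a type and less RNA per cell cannot be told apart.

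None of the 31 sterol genes passed that test in either direction: 0 were higher and 0 lower, beside 0.289% of all genes called higher and 0.512% called lower. At an unadjusted p under 0.05, 1 member was found, Lbr (17.7% of all genes tested). Voom on recovered fragments also called 0. The 3 HA livers differed among themselves instead. HA replicate 1 lay above all 3 PBS livers for 27 of the 31 genes (22.2% of all genes tested), and HA replicate 3 for 24 (17.8% of all). HA replicate 2 lay below all 3 PBS livers for 20 (37.2% of all). The order HA replicate 1 above 3 above 2 was found in 27 of 31, against 18.1% of all genes tested. The genes outside that order were Ggps1, Insig2, Npc1 and Soat1. All 3 HA livers lay above all 3 PBS livers for 0 of the 31 genes (6.47% of all) and below them for 0 (19.2% of all).

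The difference from the mean of the PBS livers, as a median over the 31 genes on the log2(FPKM + 1) scale, was 1.61 in HA replicate 1, -0.39 in HA replicate 2 and 0.43 in HA replicate 3. Over all genes tested these medians were -0.08, -0.04 and -0.08. Each PBS liver, set against the mean of the other PBS livers, had a median of -0.01, -0.12 and 0.15 over the 31 genes in replicates 1, 2 and 3. PBS replicate 3 was the highest PBS liver for 18 of the 31 (20.5% of all genes tested). Together the 31 genes took 0.515%, 0.135% and 0.215% of all fragments in HA replicates 1, 2 and 3, and 0.169%, 0.169% and 0.181% in PBS replicates 1, 2 and 3.

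**Figure D1:**
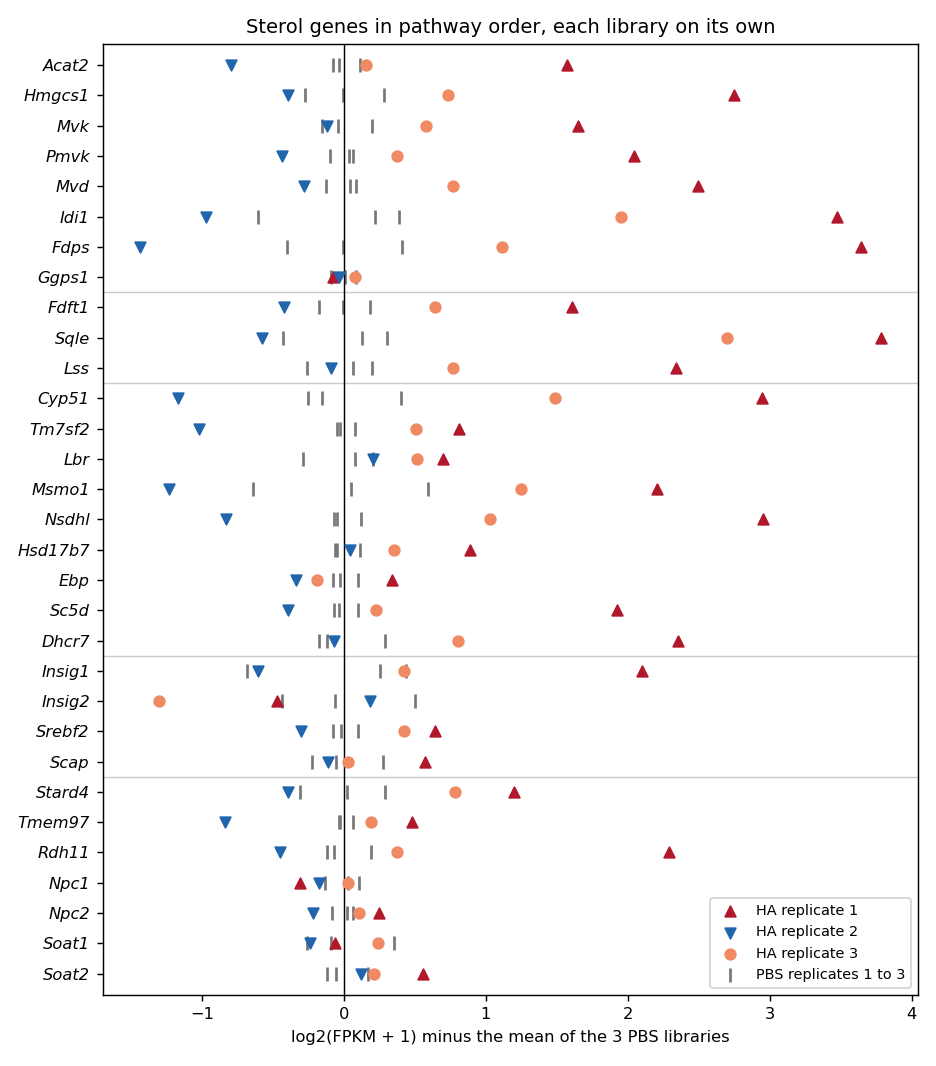
Log2(FPKM + 1) of each of the 31 genes minus the mean of the 3 PBS libraries, in pathway order from top to bottom, with lines between roles; triangles and circles are the HA libraries and grey ticks the PBS libraries. HA replicate 1 lies right of all PBS ticks for 27 genes and HA replicate 2 left of them for 20.

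The mevalonate arm turns acetyl units into the isoprenoid building blocks of sterols. Acat2, the cytosolic thiolase that joins the first acetyl units, had 54.4, 9.72 and 19.8 FPKM in HA replicates 1, 2 and 3, against 17.2, 16.7 and 19.1 FPKM in PBS replicates 1, 2 and 3. Hmgcs1, the cytosolic HMG-CoA synthase, had 158, 17.0 and 38.4 FPKM in the HA livers, against 18.6, 22.6 and 27.8 FPKM in the PBS livers. For both, HA replicate 1 was far above the PBS livers, HA replicate 3 above by less and HA replicate 2 below. Hmgcs1 was 6.89 times the PBS mean in HA replicate 1, 0.740 times in HA replicate 2 and 1.67 times in HA replicate 3.

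Mvk and Pmvk are the kinases that act on mevalonate in turn, and Mvd removes its carboxyl group. Mvk had 10.7, 2.44 and 4.59 FPKM with HA and 2.62, 3.29 and 2.36 FPKM with PBS, in replicate order. Its groups overlapped, since HA replicate 2 lay within the PBS values (log2 change 0.70, SE 0.39, limma adjusted p = 0.391). Pmvk had 15.7, 1.99 and 4.23 FPKM with HA and 3.15, 2.78 and 3.22 FPKM with PBS. Mvd had 11.04, 0.758 and 2.65 FPKM with HA and 0.960, 1.27 and 1.20 FPKM with PBS (log2 change 0.99, SE 0.60, limma adjusted p = 0.426). In Pmvk and Mvd, HA replicate 2 was below every PBS liver, while HA replicate 1 was 5.15 and 9.66 times the PBS mean.

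Idi1, the isomerase that interconverts the building blocks, and Fdps, the farnesyl diphosphate synthase that joins them, showed the widest gaps between HA livers in this arm. Idi1 had 43.3, 1.03 and 14.4 FPKM in the HA livers, against 3.64, 1.62 and 4.21 FPKM in the PBS livers. Fdps had 212, 5.28 and 35.9 FPKM in the HA livers, against 16.0, 11.9 and 21.7 FPKM in the PBS livers. HA replicate 1 exceeded HA replicate 2 by 42.0-fold for Idi1 and 40.1-fold for Fdps, and the 3 PBS livers lay between them. Ggps1, which makes the geranylgeranyl chain used for proteins outside the sterol pathway, had 1.15, 1.21 and 1.39 FPKM with HA and 1.40, 1.13 and 1.27 FPKM with PBS. Its HA and PBS values were interleaved and spanned a narrow range.

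Fdft1, squalene synthase, commits isoprenoids to sterols. It had 20.1, 4.16 and 9.81 FPKM with HA and 5.87, 5.11 and 6.87 FPKM with PBS. Sqle, squalene epoxidase, is a rate-limiting enzyme of the pathway. It had 38.7, 0.933 and 17.7 FPKM in HA replicates 1, 2 and 3, against 2.14, 1.14 and 2.54 FPKM in PBS replicates 1, 2 and 3, from 4186, 98 and 1841 fragments in the HA livers and 230, 125 and 267 in the PBS livers. Its mean was 19.1 ± 18.9 FPKM with HA and 1.94 ± 0.723 FPKM with PBS (SD, n = 3 each), and the HA SD was close to the HA mean (log2 change 1.97, SE 0.98, limma adjusted p = 0.338). HA replicates 1 and 3 were 19.9 and 9.10 times the PBS mean, and HA replicate 2 was 0.481 times. Lss, which closes the rings to form lanosterol, had 13.04, 1.601 and 3.73 FPKM with HA and 2.17, 1.32 and 1.90 FPKM with PBS (log2 change 1.01, SE 0.54, limma adjusted p = 0.373). Here HA replicate 2 lay inside the PBS range.

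The enzymes that trim lanosterol to cholesterol split into strongly and weakly uneven ones. Cyp51, the lanosterol demethylase, had 57.4, 2.36 and 20.2 FPKM in the HA livers, against 5.83, 5.36 and 9.02 FPKM in the PBS livers. Msmo1, the sterol methyl oxidase, had 102, 8.51 and 52.0 FPKM in the HA livers, against 22.1, 13.3 and 32.7 FPKM in the PBS livers. Nsdhl, a sterol dehydrogenase that acts after it, had 43.2, 2.21 and 10.7 FPKM in the HA livers, against 4.46, 4.52 and 5.20 FPKM in the PBS livers. In these 3 genes HA replicate 1 exceeded HA replicate 2 by 24.3-fold, 11.99-fold and 19.6-fold. Hsd17b7, the ketoreductase of the same cycle, differed far less, with 13.6, 7.15 and 9.13 FPKM with HA and 6.66, 6.56 and 7.57 FPKM with PBS (log2 change 0.43, SE 0.20, limma adjusted p = 0.321). HA replicate 2 was within the PBS values for Hsd17b7.

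Tm7sf2 and Lbr both encode a sterol reductase that removes the double bond left by Cyp51. Tm7sf2 had 63.2, 17.0 and 51.1 FPKM with HA and 34.3, 37.6 and 34.8 FPKM with PBS. Lbr, which also anchors chromatin to the nuclear envelope, had 3.65, 2.29 and 3.09 FPKM with HA and 2.03, 1.34 and 2.30 FPKM with PBS. Lbr had the smallest unadjusted p of the 31 genes and did not pass over all genes (log2 change 0.47, SE 0.17, limma adjusted p = 0.223). For Tm7sf2 HA replicate 2 was clearly below the PBS livers. For Lbr it was just under the highest PBS liver, so the groups overlapped by that liver alone.

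The last steps move and reduce double bonds. Ebp, the sterol isomerase, had 138, 86.1 and 95.6 FPKM with HA and 104, 107 and 117 FPKM with PBS. Sc5d, the lathosterol oxidase, had 209, 41.2 and 63.6 FPKM with HA and 51.7, 53.1 and 58.4 FPKM with PBS. Dhcr7, the reductase of the final step, had 27.0, 4.22 and 8.58 FPKM with HA and 5.70, 3.87 and 4.06 FPKM with PBS. Ebp was already the most abundant enzyme in the PBS livers on this per-length scale and was 1.26 times the PBS mean in HA replicate 1. Sc5d and Dhcr7 were 3.85 and 5.95 times the PBS mean there.

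**Figure D2:**
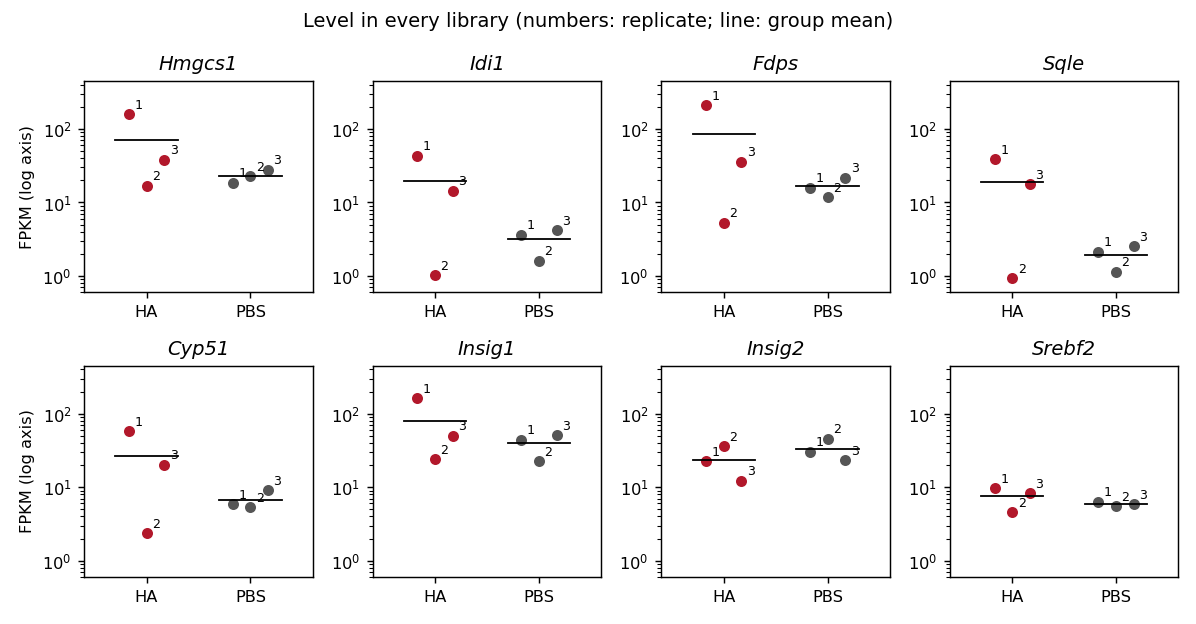
FPKM on a log axis of 8 of the genes in each HA and PBS library, with the replicate number beside each point and a line at the group mean. In Fdps and Sqle HA replicate 1 is highest, at 212 and 38.7 FPKM, and HA replicate 2 lowest, at 5.28 and 0.933 FPKM, while Insig2 is lowest in HA replicate 3.

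Between HA livers the regulators varied less than most of the enzymes, except Insig1. Srebf2 encodes SREBP2 itself and is among its own targets. It had 9.76, 4.58 and 8.27 FPKM in HA replicates 1, 2 and 3, against 6.37, 5.53 and 5.81 FPKM in PBS replicates 1, 2 and 3 (log2 change 0.25, SE 0.23, limma adjusted p = 0.590). The HA livers kept the same order as for the enzymes, with HA replicate 1 at 1.65 times the PBS mean. Scap, the escort, had 24.5, 14.9 and 16.5 FPKM with HA and 15.5, 19.8 and 13.7 FPKM with PBS. Only HA replicate 1 lay outside the PBS values for Scap.

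Insig1 and Insig2 encode the INSIG proteins that retain SCAP, and Insig1 is a strong SREBP2 target. Insig1 had 163, 24.1 and 50.2 FPKM in the HA livers, against 44.5, 22.8 and 50.6 FPKM in the PBS livers. HA replicate 1 was 4.14 times the PBS mean, and HA replicates 2 and 3 lay inside the PBS range. Insig2, which in mouse liver has a form induced by fasting, had 22.7, 36.2 and 12.3 FPKM in the HA livers, against 30.5, 45.4 and 23.3 FPKM in the PBS livers (log2 change -0.53, SE 0.38, limma adjusted p = 0.499). Its order was another one, with HA replicate 3 lowest, HA replicate 1 next and HA replicate 2 within the PBS values. Among the PBS livers, too, replicate 2 was the lowest for Insig1 and the highest for Insig2.

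Stard4 carries sterol through the cytosol, and Tmem97 is a sterol-responsive membrane protein that binds Npc1. Stard4 had 25.9, 7.94 and 19.2 FPKM with HA and 10.9, 8.47 and 13.4 FPKM with PBS (log2 change 0.53, SE 0.38, limma adjusted p = 0.5). Tmem97 had 54.0, 21.1 and 44.1 FPKM with HA and 37.4, 37.6 and 40.2 FPKM with PBS. Rdh11, a retinal reductase, had 30.5, 3.70 and 7.32 FPKM with HA and 4.93, 5.11 and 6.33 FPKM with PBS. All of them had HA replicate 1 highest of the 6 livers and HA replicate 2 lowest, most widely in Rdh11 (8.25-fold apart).

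Npc1 and Npc2 export cholesterol from lysosomes, and Soat1 and Soat2 esterify it for storage. Npc1 had 18.1, 19.9 and 23.1 FPKM with HA and 24.4, 20.5 and 23.1 FPKM with PBS. Npc2 had 22.9, 16.3 and 20.7 FPKM with HA and 20.05, 19.4 and 17.9 FPKM with PBS. Neither varied much, with HA replicate 1 the lowest of the 6 livers for Npc1 and the highest for Npc2. Soat2, the form of hepatocytes and intestine, had 17.8, 12.9 and 13.8 FPKM with HA and 10.8, 13.4 and 11.3 FPKM with PBS (log2 change 0.29, SE 0.14, limma adjusted p = 0.330). Soat1, the form of adrenal gland and macrophages, was barely above the filter with 0.529, 0.354 and 0.889 FPKM with HA and 1.04, 0.5003 and 0.332 FPKM with PBS, from 100, 65 and 162 fragments with HA and 196, 96 and 61 with PBS. Its highest value was in PBS replicate 1, the liver with adrenal transcripts, whose part in the Soat1 level was not tested. The log2 change of Soat1 was -0.02 with all libraries and 0.16 without PBS replicate 1.

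The sterol genes varied widely within the HA group. The SD of log2(FPKM + 1) over the 3 HA livers had a median of 1.01 over the 31 genes and 0.15 over all genes tested. Over the 3 PBS livers these medians were 0.18 and 0.12. An SD of at least 1 among HA livers was found for 16 of the 31 genes, against 0.754% of all genes tested, a threshold set after the values were seen. The SD was larger among HA than among PBS livers in 28 of the 31 genes, against 59.6% of all genes tested. No test was made of this spread, since each group held 3 libraries, which are not stated to be separate animals.

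**Figure D3:**
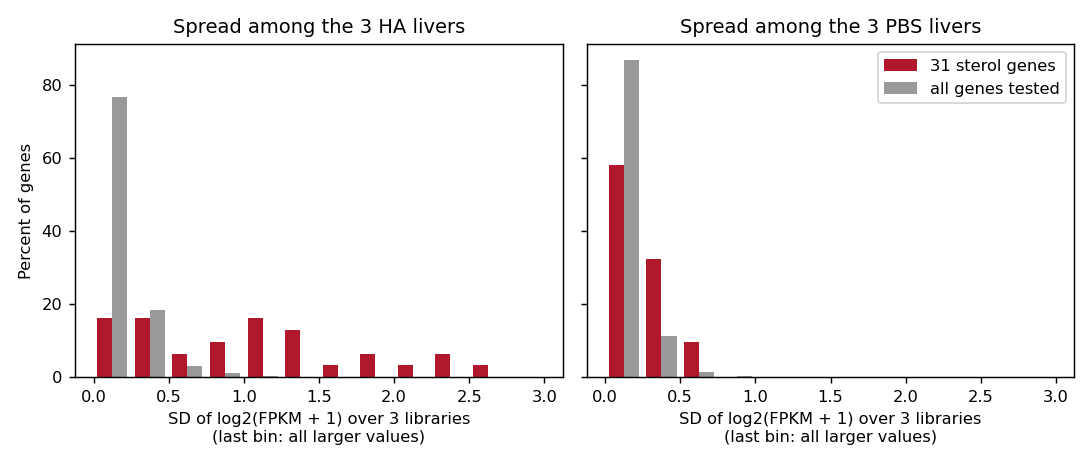
Percent of genes by the SD of log2(FPKM + 1) among the 3 HA livers (left) and the 3 PBS livers (right), for the 31 sterol genes (red) and all 10745 genes tested (grey). Among HA livers the red bars reach beyond an SD of 2, while 76.6% of all genes lie below 0.25; among PBS livers 58.1% of the sterol genes lie below 0.25.

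The log2 change of the group means depended on which HA liver was included. With all 6 libraries, 25 of the 31 genes had a positive log2 change (HA minus PBS) and 6 a negative one, and the median was 0.59, against -0.06 over all genes tested. Under median centring 29 were positive. Without HA replicate 1 the median of the 31 genes was 0.02 and 18 were positive. Without HA replicate 2 the median was 1.08, 29 were positive, 24 had an unadjusted p under 0.05 (19.1% of all genes tested in that fit). Of those 24, 23 were higher with HA, as were 5.25% of all. Sqle passed over all genes in that fit, where 0.428% of all were called higher (log2 change 3.24, SE 0.35, limma adjusted p = 0.0208, and 0.0208 to 0.558 over all alternatives). Idi1, Cyp51 and Tm7sf2 came next without HA replicate 2 (limma adjusted p = 0.0602, 0.0697 and 0.0701). HA replicate 2 was the lowest HA liver in the 27 genes with the order HA replicate 1 above 3 above 2. Leaving it out therefore raises their log2 change by construction. By role, with all 6 libraries the median was 0.85 for the 8 genes of the mevalonate arm and 1.01 for the 3 squalene and lanosterol genes. It was 0.59 for the 9 genes from lanosterol to cholesterol, 0.21 for the 4 regulators and 0.05 for the 7 genes of transport and esterification.

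**Figure D4:**
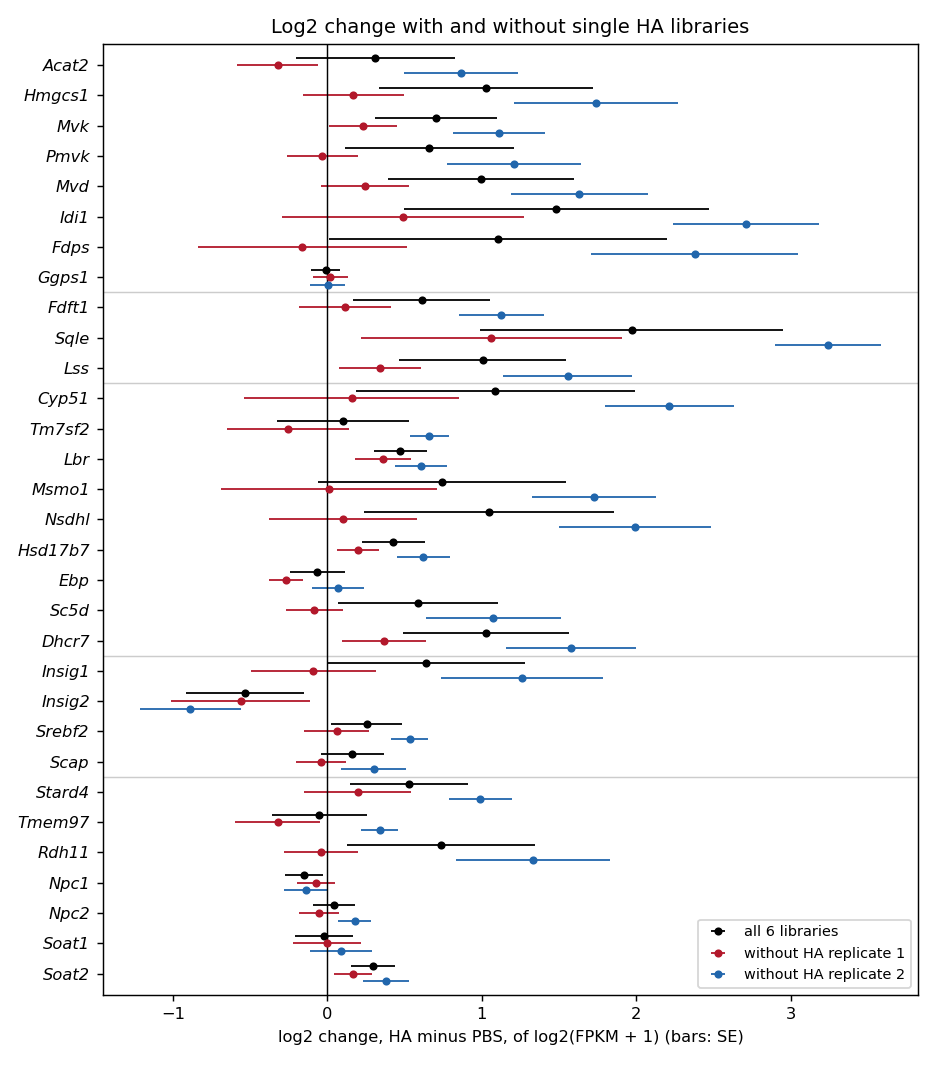
Log2 change, HA minus PBS, of log2(FPKM + 1) with its SE for each of the 31 genes, fitted with all 6 libraries (black), without HA replicate 1 (red) and without HA replicate 2 (blue). The median over the genes is 0.59, 0.02 and 1.08 in these fits.

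Genes around the pathway were read from lists of their own. Of 11 genes of SREBP proteolysis and sterol-regulated protein degradation, 0 passed over all genes. An unadjusted p under 0.05 was found for 1 (17.7% of all genes tested). That gene was Syvn1, a ubiquitin ligase of the endoplasmic reticulum, at 13, 10.5 and 8.50 FPKM with HA and 16.9, 16.1 and 13.5 FPKM with PBS. Srebf1, which encodes the sister factor of fatty acid synthesis, had 49.1, 27.6 and 25.7 FPKM with HA and 27.6, 19.0 and 21.0 FPKM with PBS (log2 change 0.54, SE 0.25, limma adjusted p = 0.319). HA replicate 1 was the highest liver for Srebf1, and HA replicate 2 stood at the level of PBS replicate 1. Mbtps1, the first protease to cut SREBP2, and Faf2, an adaptor for degradation in the endoplasmic reticulum, overlapped between groups (limma adjusted p = 0.431 and 0.420).

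Of 9 tested genes of the isoprenoid branches for dolichol, ubiquinone and prenylation, 0 passed over all genes. An unadjusted p under 0.05 was found for 1 (17.7% of all genes tested). The order HA replicate 1 above 3 above 2 was found in 3 (18.1% of all). Those were Dhdds, Pdss2 and Fnta, of which Dhdds is named after its values were seen. Coq2, of ubiquinone synthesis, had 8.01, 7.68 and 7.38 FPKM with HA and 10.1, 10.7 and 9.25 FPKM with PBS (log2 change -0.34, SE 0.10, limma adjusted p = 0.138), with all 3 HA livers below all 3 PBS livers. Fnta, a subunit of the prenyl transferases, had 15.6, 14.4 and 15.1 FPKM with HA and 16.4, 18.6 and 17.7 FPKM with PBS (log2 change -0.21, SE 0.09, limma adjusted p = 0.293). Both sat lower in the HA livers with little spread, unlike the sterol enzymes.

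Of 9 genes for electron donors and helpers of the sterol enzymes, 0 passed over all genes. An unadjusted p under 0.05 was found for 4 (17.7% of all genes tested). Cyb5a, cytochrome b5, had 774, 1059 and 1082 FPKM in the HA livers, against 1403, 1369 and 1486 FPKM in the PBS livers (log2 change -0.56, SE 0.15, limma adjusted p = 0.129). Sec14l2, which stimulates squalene epoxidation, had 178, 138 and 164 FPKM with HA and 207, 285 and 209 FPKM with PBS (log2 change -0.53, SE 0.16, limma adjusted p = 0.158). Pgrmc1, a heme protein that binds Cyp51, had 475, 552 and 612 FPKM with HA and 632, 754 and 697 FPKM with PBS (log2 change -0.35, SE 0.13, limma adjusted p = 0.235). In all of these the HA livers lay below the PBS livers without overlap, as for 19.2% of all genes tested, which none of the 31 sterol genes did.

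The order HA replicate 1 above 3 above 2 was found in 5 of these 9 helpers (18.1% of all genes tested). Those were Cyb5b, Cyb5r3, Erg28, Sec14l2 and Aacs. Erg28, a scaffold for the demethylating enzymes, had 45.1, 16.3 and 26.6 FPKM with HA and 22.0, 21.9 and 23.8 FPKM with PBS. Cyb5b, the outer mitochondrial form of cytochrome b5, had 106, 34.02 and 63.1 FPKM with HA and 69.8, 79.1 and 88.4 FPKM with PBS. Aacs, which activates acetoacetate for sterol synthesis, had 11.5, 2.32 and 4.04 FPKM with HA and 17.9, 6.90 and 22.0 FPKM with PBS (log2 change -1.34, SE 0.55, limma adjusted p = 0.264). Erg28 and Cyb5b thus had HA replicate 1 highest and HA replicate 2 lowest of the 6 livers, and Aacs was lower in all HA livers than in PBS replicates 1 and 3. Por, the reductase that feeds electrons to Sqle and Cyp51, ran the other way, with 66.3, 218 and 176 FPKM with HA and 225, 119.7 and 198 FPKM with PBS. Erg28, Cyb5b and Por were named after their values were seen.

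LXR is the receptor that drives sterol efflux when sterols accumulate. Of its 6 genes 0 passed over all genes and 1 had an unadjusted p under 0.05 (17.7% of all genes tested). The order HA replicate 1 above 3 above 2 was found in 0 (18.1% of all). Nr1h3, the liver LXR, had 31.5, 29.9 and 33.1 FPKM with HA and 36.8, 40.3 and 36.0 FPKM with PBS (log2 change -0.25, SE 0.10, limma adjusted p = 0.240). Abca1, the cholesterol exporter, had 21.3, 27.0 and 23.3 FPKM with HA and 19.2, 22.1 and 16.4 FPKM with PBS (log2 change 0.30, SE 0.14, limma adjusted p = 0.305). Abcg1, another exporter, had 0.969, 1.42 and 0.992 FPKM with HA and 0.959, 0.771 and 0.706 FPKM with PBS (log2 change 0.23, SE 0.12, limma adjusted p = 0.353). Of all livers, Abca1 and Abcg1 were highest in HA replicate 2, Lpcat3 in HA replicate 1 and Mylip in HA replicate 3. Nr1h3 and Nr1h2 were highest in PBS replicate 2. Mylip and Nr1h2 were named after their values were seen.

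Genes of the fed state shared part of the pattern. All 7 tested fed-state genes had the order HA replicate 1 above 3 above 2 (18.1% of all genes tested). The summed level of the 8 listed was 356, 65.4 and 138 FPKM with HA and 279, 129 and 335 FPKM with PBS, in replicate order. Acly, which makes cytosolic acetyl-CoA, had 54.1, 11.2 and 13.1 FPKM with HA and 12.2, 10.96 and 10.1 FPKM with PBS (log2 change 0.81, SE 0.52, limma adjusted p = 0.446). Thrsp, a lipogenic protein, had 127, 13.3 and 40.2 FPKM with HA and 128, 34.8 and 189.6 FPKM with PBS (log2 change -1.18, SE 0.87, limma adjusted p = 0.504). Acly was highest in HA replicate 1 and close to the PBS livers in HA replicate 2. Thrsp stood at about the same level in PBS replicate 1 as in HA replicate 1 and was higher in PBS replicate 3, while the sum of the sterol enzymes was lower in both of those PBS livers than in HA replicate 1. The part of feeding state in the sterol pattern was not tested.

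The sums of the fasting, clock, macrophage and adrenal lists did not have that order. The 8 fasting genes summed to 1860, 1931 and 2111 FPKM with HA and 1874, 2554 and 2056 FPKM with PBS. Of 11 tested clock genes, 0 passed and 0 had the order HA replicate 1 above 3 above 2 (18.1% of all genes tested). The summed level of the 13 in the table was 105, 153 and 137 FPKM with HA and 139, 115 and 123 FPKM with PBS. The 7 macrophage markers summed to 130, 86.4 and 165 FPKM with HA and 71.9, 87.8 and 77.7 FPKM with PBS, with none at 0. Of the 8 adrenal markers, 4 (Hsd3b1, Cyp11a1, Cyp11b1 and Nr5a1) were at 0 in all HA livers. The sums over all 8 adrenal markers, 45.3, 62.2 and 43.3 FPKM with HA and 102, 30.1 and 41.2 FPKM with PBS, were made up outside PBS replicate 1 almost wholly of Cyp17a1 and Fdx1, which liver also expresses.

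**Figure D5:**
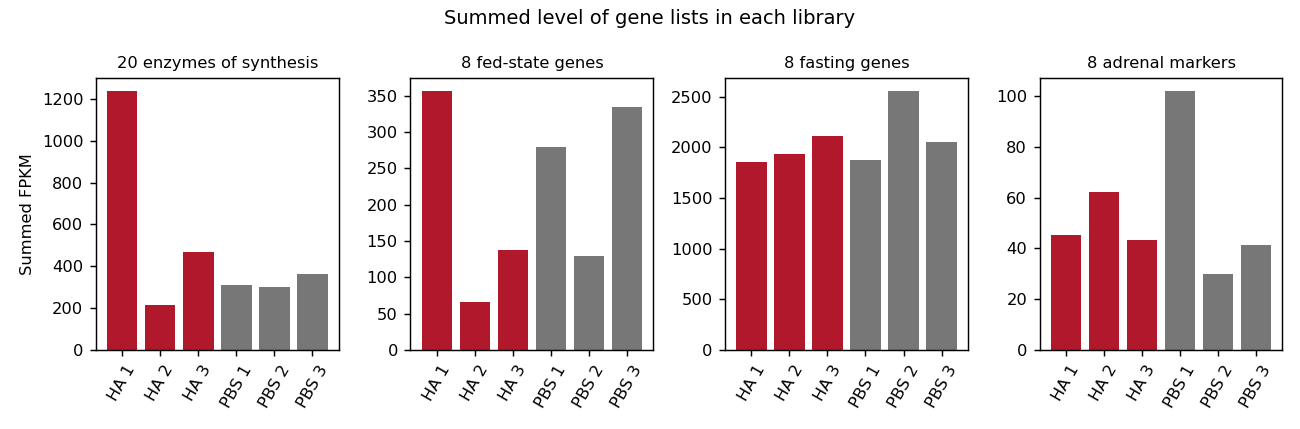
Summed FPKM of 4 gene lists in each HA (red) and PBS (grey) library. The 20 enzymes of synthesis sum to 1236 FPKM in HA replicate 1, 217 in HA replicate 2 and 466 in HA replicate 3, against 302 to 364 in PBS, while the 8 fed-state genes are also high in PBS replicates 1 and 3.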

How the data were processed

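The authors deposited 1 table of FPKM values, 1 column per liver library. The unit was read from the values. Per the submitters' processing notes, Trimmomatic and HISAT2 were used with the build GRCm39. The sources used here do not give the counter, the annotation, any use of strand or how near-identical copies shared fragments. Per the labels' protocols, libraries were made from total RNA, and 2 kits are named without saying which was used.

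Low values are whole multiples of 1 fragment, which gave exact library totals and, for the smallest whole gene length, whole fragments for all 99828 values (within 0.0001). A factor common to all totals cannot be seen this way. Group differences were fitted to log2(FPKM + 1) by limma 3.58.1 (R 4.3.3) with a variance trend and no covariate, for genes averaging 0.5 FPKM or more, with Benjamini-Hochberg adjustment over all 10745 genes. Fold changes on this scale understate those of low genes. An exact permutation test of 3 against 3 cannot reach a two-sided p of 0.05, so none was used for single genes. All members may be named. Log2 changes are given for the 2 with the smallest p in each role and for Srebf2 and Sqle, and up to 4 genes come from each other list by smallest p; some genes that this rule would name are not reported here. Members and lists were chosen with earlier results of these data known.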

Additional observations from a re-analysis of the deposited data

How the results depend on the processing

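Over the alternatives that kept all 6 libraries (another pseudocount, no filter, a filter at a mean of 1 FPKM, median centring, scaling outside Alb, voom on 2 kinds of depth, no variance trend, a replicate block), 0 of the 31 genes passed in either direction, and the smallest adjusted p was 0.192. Of 278 log2 changes (Soat1 was under the filter at 1 FPKM), 266 kept their sign and 12 turned positive, for Ggps1, Ebp, Tmem97 and Soat1. Under median centring, outside Alb and with voom on median-ratio depths, in that order, they were 0.058, 0.040 and 0.073 for Ggps1, 0.0033, 0.021 and 0.023 for Ebp, 0.016, 0.033 and 0.033 for Tmem97 and 0.048, 0.014 and 0.051 for Soat1. Over all genes, 7 were called higher and 10 lower with no filter, and lower calls numbered 27 with median centring, 24 outside Alb and 11 with voom on median-ratio depths. Leaving out a library at a time gave 1 to 46 genes higher, 4 to 69 lower, and 0 to 1 member higher, with Sqle the call without HA replicate 2. Leaving out any other library lowered both counts over all genes by more than 1.5 times. The log2 changes that turned then ranged, by gene, as follows: Acat2 -0.32 to 0.86, Pmvk -0.0325 to 1.21, Fdps -0.16 to 2.38, Ggps1 -0.0557 to 0.0313, Tm7sf2 -0.25 to 0.66, Ebp -0.27 to 0.0721, Sc5d -0.0846 to 1.08, Insig1 -0.0909 to 1.26, Scap -0.0418 to 0.30, Tmem97 -0.32 to 0.34, Rdh11 -0.0408 to 1.33, Npc2 -0.0561 to 0.18, Soat1 -0.15 to 0.16. The causes were not tested.

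The labels do not say whether the replicate numbers pair the livers. The correlation of same-numbered deviations was -0.14, -0.13 and 0.18 for numbers 1, 2 and 3, and HA replicate 1 correlated best with PBS replicate 2. With 3 libraries per group, these correlations cannot decide whether the livers were paired. With the replicate block, 7 genes were called higher, 9 lower and 0 of the 31. Of the 31, 5 then had an unadjusted p under 0.05 (15.3% of all genes tested in that fit). A planned negative binomial test on recovered fragments was not run. The SE for Sqle was 0.98, and each of the 31 genes had 51 fragments or more in every library. How far counting and the spread between HA livers each limited the precision was not tested.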
